A study of Daphnia magna with 56 samples.

Results

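The 100 transcripts described here are those whose level in whole Daphnia magna followed the dose rate of gamma radiation most closely after 8 days, while showing no such relation after 4 days. They were taken from 23570 transcript records counted in every library. Each count was divided by the total of its library to give CPM, a level relative to all counts of that library, and converted to log2(CPM + 0.5). A record was considered when its mean over the 56 libraries lay between 5 and 1000 CPM, when its mean in unirradiated animals differed by less than 1 log2 unit between day 8 and day 4, and when its Spearman correlation with the rank of the dose rate on day 4 lay within 0.3 of 0. Of the 23570 records, 5169 met these limits, and the 100 with the highest Spearman correlation on day 8 were kept. The members were thus chosen by their measured values on day 8, on day 4 and in the controls, and their trends and group differences below are a description of what was chosen.

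Daphnia magna is a small freshwater crustacean whose females reproduce without mating, and it is a standard animal in aquatic toxicity testing. The animals were wild-type females, labelled juvenile and 4 or 8 days old, kept in M7 medium in beakers of 50 mL filled with 45 mL, and exposed from the start at 0, 0.4, 1, 4, 10, 40 or 100 mGy/h. Each of the 14 combinations of dose rate and day had 4 libraries of messenger RNA from whole organisms, and the unirradiated group of the same day (0 mGy/h) is the control. At 100 mGy/h the dose rate multiplied by the time comes to 19.2 Gy on day 8 and 9.6 Gy on day 4. The labels do not say whether replicates were separate cultures or how many animals were pooled, so the spread between libraries may be partly technical. In whole animals, a change in the number of cells of a type and a change in RNA per cell cannot be told apart.

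Gamma rays ionise water and other molecules in tissue, which gives reactive oxygen species and breaks in DNA. Cells answer such damage with DNA repair, antioxidant enzymes, arrest of the cell cycle and cell death, and dividing tissues are known to be the most sensitive. In young Daphnia the days sampled cover repeated moults and the growth of the ovary. The series was built to relate dose rate to molecular change, so the question for these transcripts is at which dose rates and on which day their levels leave those of the controls.

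Of the 100 members, 62 matched a gene symbol in the RefSeq annotation of assembly ASM2063170v1.1, all of them LOC numbers without a description, and 38 matched none. No function is therefore given for any member. No symbol was shared by 2 members. One member, XM_032933477.1 (LOC116926536), has another record under its symbol, so reads could have been split between the records. LOC116931460 and LOC116929959 neighbour each other in the annotation with no more than 1 gene step between them, as do LOC116931073 and LOC116931070. No other pair lay within 3 genes of each other among the members whose symbol could be placed in the annotation. The 38 members without a symbol could not be placed.

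Total counts per library were 14032254 to 14986499 on day 8 and 13285376 to 14243541 on day 4. All 100 members passed the filter on low counts on day 8, and 99 did so on day 4. Scaling matters for a dose trend in these libraries. When counts were divided by the library total alone, the median of the 5169 records lay below control on day 8 by between 0.03 and 0.13 log2 units, at -0.13 at 1 mGy/h and -0.09 at 100 mGy/h. After scaling by TMM factors, which align the bulk of the transcripts, that median was -0.02 at 100 mGy/h. All levels and differences below are on the TMM-scaled CPM, with differences as those of mean log2(CPM + 0.5). For the members, 1 library was often low: replicate 3 at 10 mGy/h on day 8 had the lowest value of all 28 libraries of that day for 17 of the 100. This count was made for that library only and not over all records, and the choice of the members had used the library. Its total of 14641919 counts and its TMM factor of 0.91 lay within the range of the day.

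On day 8 the median of the members stayed at control level at 0.4 and 1 mGy/h and was higher from 4 mGy/h upward. At 0.4, 1, 4, 10, 40 and 100 mGy/h, in that order, the median difference from control was -0.00, -0.01, 0.13, 0.12, 0.23 and 0.45 log2 units. The number of members with a mean above control was 49, 48, 92, 91, 100 and 100 in the same order. Single members went both ways at the lowest dose rates, with quartiles of -0.10 and 0.11 at 0.4 mGy/h and of -0.16 and 0.14 at 1 mGy/h. Without replicate 3 at 10 mGy/h, the median there was 0.18, which is above the value at 4 mGy/h. Over the 5169 records, the median difference stayed between -0.02 and 0.00 at all 6 dose rates. The differences are small in size: only 3 members differed by at least 1 log2 unit at 100 mGy/h, and 44 differed by at least 0.5.

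**Figure D1:**
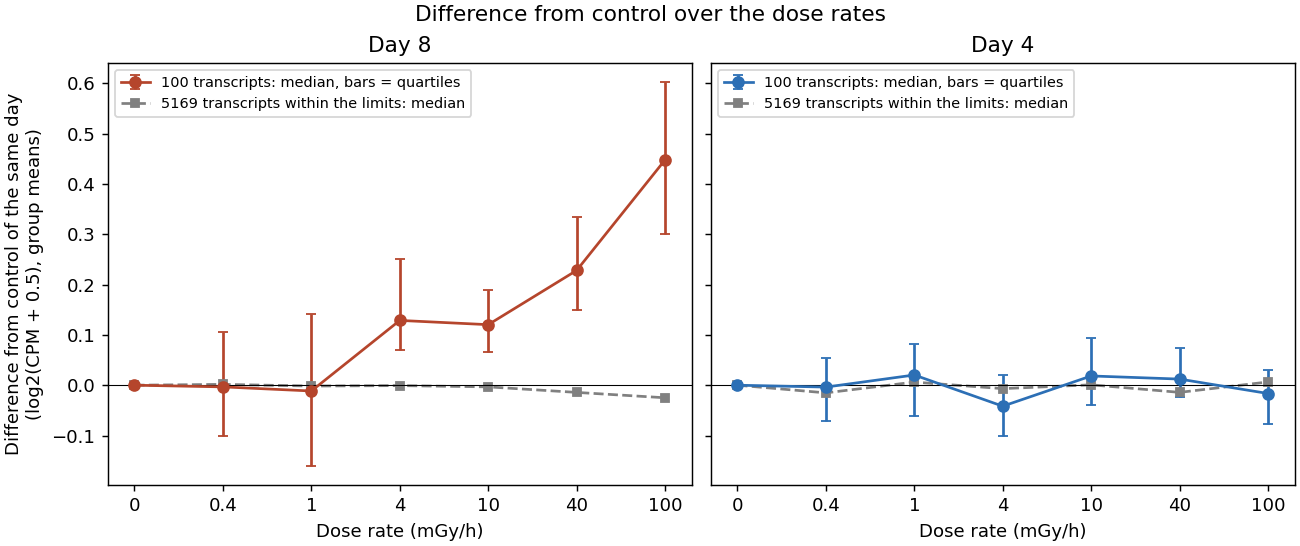
Difference of group means from the control of the same day, in log2(CPM + 0.5), against dose rate, on day 8 (left) and day 4 (right). Circles with bars are the median and quartiles of the 100 transcripts, and grey squares the median of the 5169 records within the limits. On day 8 the median of the 100 leaves 0 at 4 mGy/h and reaches 0.45 at 100 mGy/h, while on day 4 it stays between -0.04 and 0.02.

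Most of the members had their highest mean at 100 mGy/h, namely 85, while 12 peaked at 40 mGy/h and 3 at 1 mGy/h. The lowest mean was that of the controls for 31 members, that of the 0.4 mGy/h group for 28, of the 1 mGy/h group for 39 and of the 10 mGy/h group for 2. A strictly stepwise increase through all 7 dose rates was rare: XM_032924929.1 (LOC116919060), XM_032942116.1 and XM_032941752.1 were the 3 members with it, named here after their values were seen. In 45 members the mean first exceeded 50% of the 100 mGy/h difference, and stayed above it, at 100 mGy/h itself, in 38 this happened at 40 mGy/h, and in 17 at a lower dose rate. The median step between 40 and 100 mGy/h was 0.20 log2 units and that between 0 and 40 mGy/h was 0.23.

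**Figure D2:**
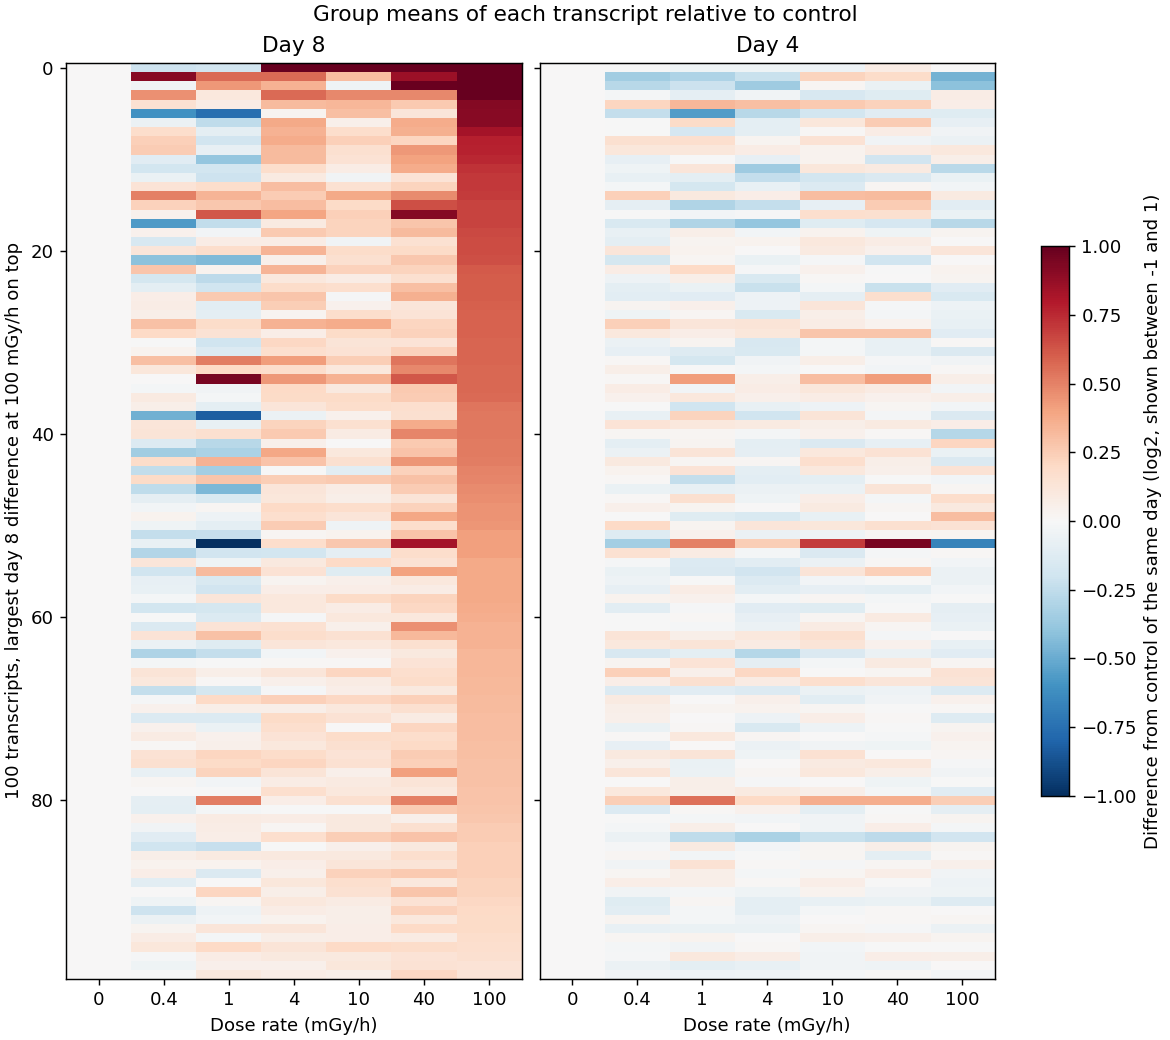
Group means of each of the 100 transcripts relative to the control of the same day (log2, colours limited to -1 and 1), with 1 transcript per line in the same order in both panels, on day 8 (left) and day 4 (right), and dose rates across. The column at 100 mGy/h on day 8 is red throughout, the columns at 0.4 and 1 mGy/h hold both colours, and day 4 is mostly near white.

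The separate libraries show the same picture. With each member set to mean 0 and SD 1 over the 28 libraries of a day, the mean over the 100 members was 1.05, 1.22, 1.17 and 1.26 in the 4 libraries at 100 mGy/h on day 8, against -0.89, -0.58, -0.45 and -0.41 in the controls. The 4 libraries at 40 mGy/h lay in between, at 0.30, 0.42, 0.71 and 0.36. At 10 mGy/h the values were 0.02, 0.55, -0.90 and 0.20, so that replicate 3 had the lowest value of the day, level with the lowest control. The groups at 100 and 40 mGy/h overlapped neither each other nor the controls, and the groups at 0.4 and 1 mGy/h ranged from -0.86 to -0.21 and overlapped the controls. Over the 5169 records the same mean lay between -0.24 and 0.12 in every library of day 8.

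**Figure D3:**
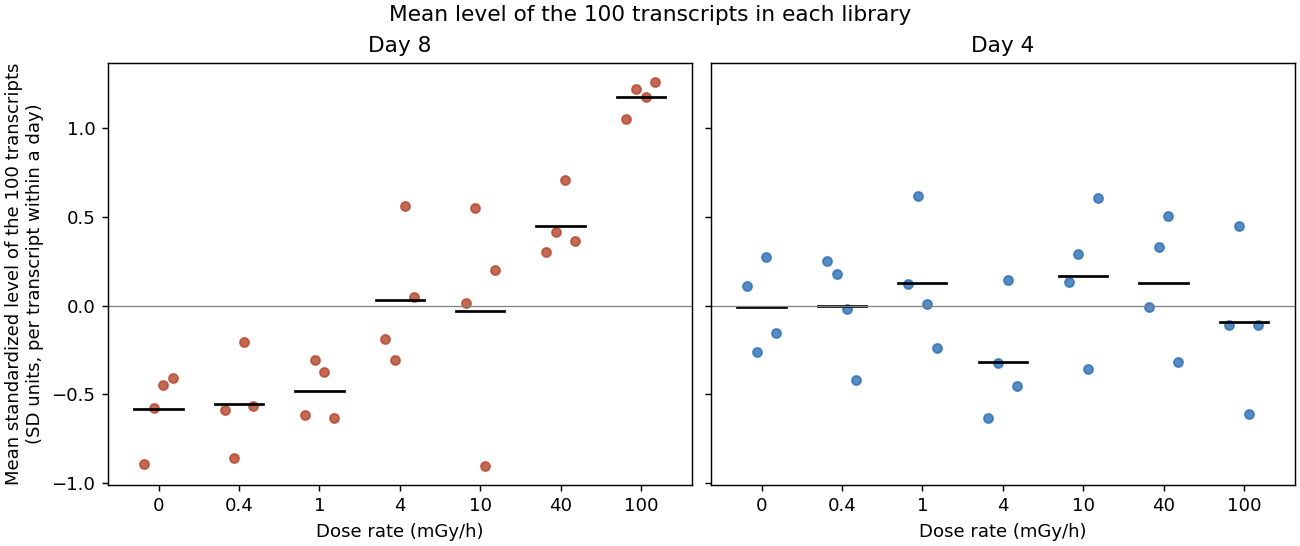
Mean standardized level of the 100 transcripts in each library (SD units within a day), by dose rate, on day 8 (left) and day 4 (right). Points are libraries and lines the mean of 4. On day 8 the 4 libraries at 100 mGy/h are the highest and the third library at 10 mGy/h falls to -0.90, while on day 4 all groups overlap.

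Read member by member, all 4 libraries at 100 mGy/h lay above all 4 controls for 64 members. Among the 9367 records tested on day 8 the same held for 6.54%, and since the choice used these libraries nothing is read from the excess. The count was 23 in the 40 mGy/h group (1.53% of the records tested), 4 in the 10 mGy/h group (0.843%), 6 in the 4 mGy/h group (1.77%), 5 in the 1 mGy/h group (2.81%) and 2 in the 0.4 mGy/h group (2.08%). For 22 members the 100 mGy/h libraries also lay above all 4 at 40 mGy/h (2.78% of the records tested). For 7 members they lay above all other 24 libraries of the day, which 0.299% of the records tested did.

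In edgeR's quasi-likelihood test across all records, with Benjamini-Hochberg adjustment at 0.05, 71 of the 100 members had a positive slope on the dose rank on day 8, a call made for 3.22% of all 9367 records in that direction. Against control, 37 members were called higher at 100 mGy/h (1.33% of all records) and none was called lower (1.4%). At 40 mGy/h no member was called (0.032%), with 44 members among the 270 records higher at an unadjusted p under 0.05, and 5 among the 31 of 11921 records called by DESeq2. For 10 mGy/h (0.0107%) and for 4 mGy/h (0%) no member was called, with 8 members among the 131 and 8 among the 127 records higher at an unadjusted p under 0.05, and none among the 4 and 2 records called by DESeq2. At 0.4 mGy/h (0.0214%) there was again no call, with 4 members among the 451 records at an unadjusted p under 0.05, and none among the 10 called by DESeq2. At 1 mGy/h 1 member was called higher (0.214%). At an unadjusted p under 0.05, 6 members were among the 521 records higher there and 5 among the 368 lower. DESeq2 called 2 members at 1 mGy/h, among 54 records. All of these restate the choice of the members and are not evidence for it.

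The counts of calls rest on individual libraries, for all records as for the members. The slope was called for 45, 46, 28 and 31 members without replicates 1, 2, 3 and 4 at 100 mGy/h in turn, among 328, 322, 221 and 222 records in either direction, against 609 with all libraries. For 100 mGy/h against control, 11, 14, 13 and 5 members were called without replicates 1, 2, 3 and 4 at 100 mGy/h, among 107, 85, 148 and 55 records, against 256 with all libraries. Without control replicates 1, 2, 3 and 4 the members called were 3, 5, 18 and 11, among 35, 56, 191 and 80 records. Without replicate 3 at 10 mGy/h, 84 members were called for the slope, among 917 records, and 55 for 100 mGy/h, among 506. The median log2 fold change at 100 mGy/h moved much less, between 0.41 and 0.47 over the 28 libraries left out in turn. With surrogate variables estimated from the data as covariates, 8 members were called for the slope, among 35 records, and 2 at 100 mGy/h, among 27, and the median log2 fold change was 0.33.

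Lists chosen anew without some libraries can be read in the libraries left out. The 100 records were chosen again without replicate 1, 2, 3 or 4 of every group, and each list was then read in the left-out libraries alone. At 100 mGy/h on day 8, 92, 86, 79 and 75 of the 100 records of these lists lay above the left-out control, with median differences of 0.39, 0.26, 0.15 and 0.20 log2 units. Of the 5169 records, 49.2%, 45.4%, 43.5% and 44.5% lay above control in the same libraries. The limits that gave the 5169 records had used all libraries, also those left out here. At 40 mGy/h the counts were 81, 64, 54 and 60, with medians of 0.22, 0.08, 0.02 and 0.05. The share of the 5169 records above control there was 46.4%, 47.1%, 44.8% and 49.8%. At 10 mGy/h they were 81, 69, 8 and 49, beside 50.8%, 44.2%, 53.9% and 49.7% of the 5169 records. The 8 belongs to replicate 3, the library with the lowest mean standardized level of the members on day 8. At 4 mGy/h the counts were 64, 64, 67 and 65, with medians of 0.16, 0.11, 0.09 and 0.07, beside 50.2%, 48.2%, 47.2% and 52.2% of the 5169 records. For replicates 2, 3 and 4 the median was thus higher at 4 mGy/h than at 40 mGy/h, unlike the order found with all libraries. On day 4, 48, 67, 38 and 38 of the records lay above control at 100 mGy/h, beside 50.4%, 47.4%, 51.8% and 58.1% of the 5169 records. At 100 mGy/h on day 8 the median of the lists was thus above 0 in all 4 left-out replicates, while at 40 mGy/h it was near 0 in some. These lists are not the 100 members, whose median of 0.45 comes from 4 libraries per group. In the same single libraries at 100 mGy/h the 100 members had medians of 0.42, 0.46, 0.36 and 0.37, but those libraries were used to choose them. Each of these values rests on 1 exposed library and 1 control, and the 4 lists share most of the libraries behind their choice, so no test was made. The 100 records of a list were read in the same libraries and are not replicates of a dose rate.

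The lists also differ in which records they hold. Without 1 replicate of every group, between 42 and 60 of the 100 members were chosen again, 13 members were chosen in all 4 such lists and 9 in none. Scaling by TMM factors kept 62 members, and a Pearson correlation kept 75. Without the 100 mGy/h group 47 members were kept, and without the control group 31. Lifting the limit on the difference between the controls of the days kept 42, since records that change with age then entered the list. Under all 13 alternatives 7 members were kept. These were XM_032923404.1, XM_032923599.1 (LOC116917970), XM_032929314.1 (LOC116922857), XM_032931828.1, XM_032933073.1 (LOC116926242), XM_032937297.1 (LOC116929961) and XM_032939095.1 (LOC116931460). They are named for this count, after their values were seen.

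**Figure D4:**
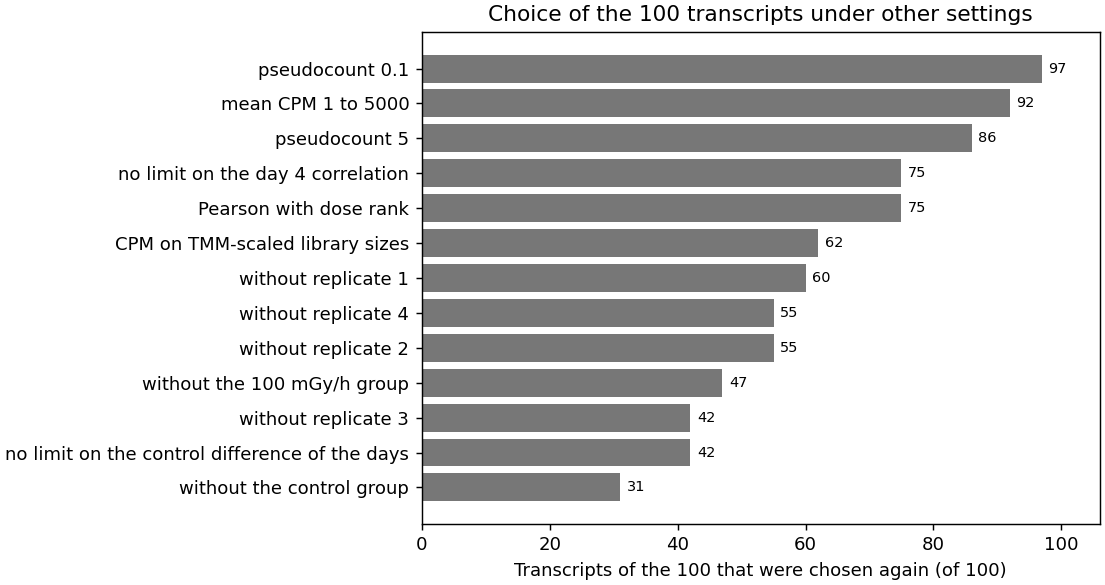
Number of the 100 transcripts that were chosen again when a single setting of the choice was changed, 1 bar per setting. Pseudocounts of 0.1 and 5 kept 97 and 86, while leaving out the control group kept 31.

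The correlation with dose rank on day 8 ranged from 0.475 to 0.679 over the members, with a median of 0.522. The last members inside the limit, XM_032924545.1 and XM_032937232.1, both had 0.475. The next records outside it, XM_032936637.1 and XM_032940942.1 (LOC116933039), had 0.473, so the limit falls within a dense range of values. XM_032936637.1, just outside, had 96.7, 87.0, 101 and 104 CPM at 100 mGy/h against 68.1, 55.6, 86.6 and 75.7 CPM in controls, groups that did not overlap. XM_032924545.1, just inside, had 33.8, 36.8, 35.0 and 29.8 CPM against 25.7, 26.6, 30.7 and 25.9 CPM, and its lowest exposed library lay below its highest control.

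The highest correlations, 0.679 each, belonged to XM_032923599.1 (LOC116917970) and XM_032935389.1. XM_032935389.1 had 207, 214, 215 and 217 CPM at 100 mGy/h, against 166, 157, 164 and 170 CPM in controls on day 8. Its 4 exposed libraries lie close together and well above all controls. The means over the dose rates, from 0 to 100 mGy/h, were 164 ± 5.09, 163 ± 9.48, 178 ± 6.22, 177 ± 10.4, 188 ± 13.9, 192 ± 13.9 and 213 ± 4.55 CPM (SD, n = 4 each). This is a difference of 0.38 log2 units at 100 mGy/h, and the increase is spread over the dose rates from 1 mGy/h upward. On day 4 the same transcript had 172, 168, 149 and 157 CPM at 100 mGy/h and 167, 150, 175 and 156 CPM in controls, which overlap.

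XM_032923599.1 had 34.0, 50.4, 37.6 and 37.3 CPM at 100 mGy/h on day 8, against 19.7, 27.6, 20.6 and 31.9 CPM in controls. All exposed libraries were above all controls, though the lowest exceeded the highest control only slightly. The group means were 39.9 ± 7.22 CPM at 100 mGy/h and 24.9 ± 5.81 CPM in controls, with 38.9 ± 7.19 CPM in the 40 mGy/h group (SD, n = 4 each), so 40 and 100 mGy/h did not differ beyond their spread. On day 4 its means were 13.7 ± 2.38 CPM at 100 mGy/h and 14.6 ± 0.95 CPM in controls, with 17.7 ± 3.12 CPM in the 40 mGy/h group. The transcript was thus higher on day 8 than on day 4 in controls as well as at 100 mGy/h.

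Further members among the 10 with the highest correlation showed modest differences on day 8. XM_032941235.1 had 18.5, 17.7, 17.1 and 19.9 CPM at 100 mGy/h, against 13.9, 13.5, 12.3 and 13.2 CPM in controls. XM_032929314.1 had 51.7, 47.6, 52.6 and 62.0 CPM, against 33.2, 38.1, 46.8 and 38.3 CPM. XM_032935339.1 had 82.7, 78.5, 71.3 and 72.8 CPM, against 63.0, 59.8, 61.4 and 61.8 CPM. In none of these did the 100 mGy/h libraries overlap the controls. XM_032933073.1 had 72.4, 81.3, 62.8 and 62.0 CPM at 100 mGy/h, against 40.1, 52.7, 46.7 and 47.8 CPM in controls. XM_032943568.1 (LOC116936419) had 65.3, 79.5, 80.2 and 70.9 CPM, against 38.1, 60.0, 43.9 and 58.8 CPM. Both were also without overlap, and the controls of XM_032943568.1 fell into a lower and a higher pair.

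XM_032937297.1 (LOC116929961) had 22.3, 17.0, 25.3 and 25.7 CPM at 100 mGy/h on day 8, against 11, 9.52, 17.5 and 15.5 CPM in controls. Here the lowest exposed library lay just under the highest control. On day 4 this transcript was at 7.14 ± 0.43 CPM at 100 mGy/h and 6.85 ± 0.80 CPM in controls (SD, n = 4 each), below every library just given for day 8.

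The largest difference by far was that of XM_032934796.1 (LOC116927744), and it was uneven between replicates. It had 446, 1.03, 339 and 608 CPM at 100 mGy/h on day 8, against 0.387, 0.0821, 0.365 and 0.0750 CPM in controls, which are 1 to 5 counts per control library. Replicate 2 at 100 mGy/h, with 12 counts, was far below the other 3 but still above all controls. The 40 mGy/h group had 0.149, 0.351, 176 and 1.38 CPM. The 10 mGy/h group had 12.0, 33.5, 0.151 and 0.726 CPM, and the 4 mGy/h group 0.163, 0.361, 16.0 and 0.235 CPM. One or 2 libraries of each of these groups were high and the rest did not exceed 1.38 CPM, so the group means do not describe a common level. On day 4 no group mean exceeded 0.0944 CPM, and this was the 1 member that the filter on low counts removed on that day. Its mean of 25.8 CPM met the limit of 5 CPM only through the exposed day 8 libraries where it was high. The day 4 correlation of 0.05 and the control difference of 0.28 log2 units, which also let it enter, come from counts near 0. Its place among the members therefore rests on the libraries that show its difference. The SD within the 100 mGy/h group was 257 CPM beside a mean of 348 CPM, so its size at 100 mGy/h is not given as a fold.

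**Figure D5:**
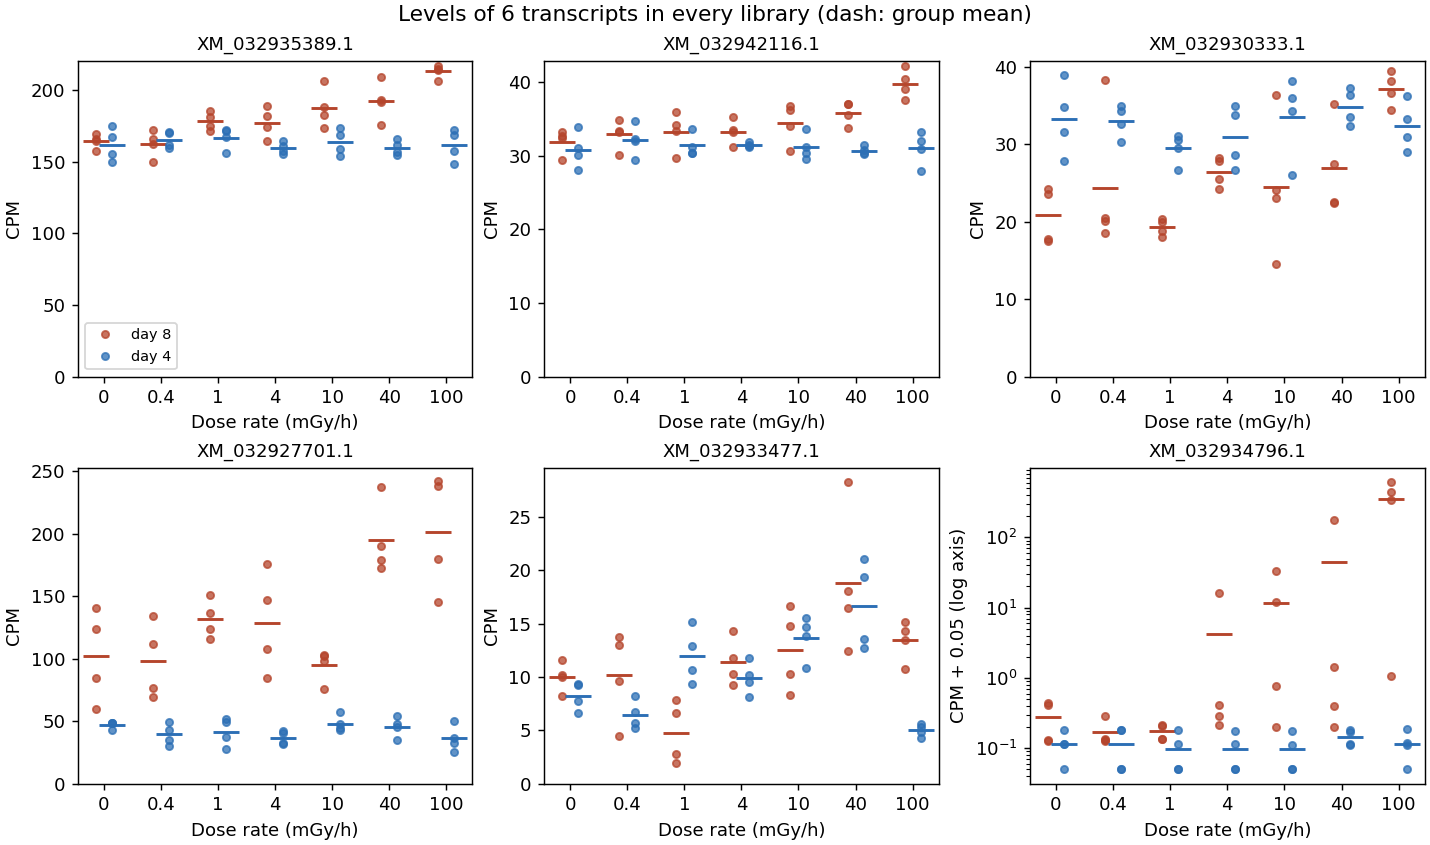
CPM of 6 transcripts in every library by dose rate, with day 8 in red and day 4 in blue, 4 points per group and a dash for the group mean. The first 5 panels have linear axes starting at 0, and the panel of XM_032934796.1 has a log axis of CPM + 0.05. XM_032935389.1 and XM_032942116.1 increase in small steps on day 8, XM_032930333.1 is separate mainly at 100 mGy/h, XM_032933477.1 is highest at 40 mGy/h on both days, and XM_032934796.1 is scattered widely within the day 8 groups from 4 mGy/h upward.

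The next in size was XM_032922066.1 (LOC116916733), with 13.1, 21.4, 18.1 and 16.2 CPM at 100 mGy/h on day 8, against 3.71, 8.54, 5.26 and 7.58 CPM in controls. The groups did not overlap, and the difference was 1.43 log2 units. Its mean of 5.81 CPM was close to the limit of 5 CPM and included the exposed day 8 libraries, where it was high. Its place among the members therefore rests partly on the libraries that show its difference. On day 4 it had 1.35, 1.96, 1.18 and 1.68 CPM at 100 mGy/h, against 2.02, 2.91, 2.05 and 2.30 CPM in controls. There all exposed libraries lay below all controls, and it was the 1 member with opposite, non-overlapping differences on the days. At 100 mGy/h, 2.28% of the 9369 records tested lay below all controls on day 4, and 6.54% of 9367 lay above them on day 8. The share with both was not computed, so nothing is read from this count. Its controls differed between day 8 and day 4 by 1.21 log2 units on the TMM scale and by 0.93 on the scale of library totals that the limit of 1 used.

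XM_032927701.1 (LOC116921413) had 145, 242, 238 and 180 CPM at 100 mGy/h on day 8, against 60.1, 124, 84.4 and 141 CPM in controls. All exposed libraries were above all controls, but the controls themselves ranged more than 2-fold. At 40 mGy/h it had 179, 173, 238 and 190 CPM, similar to 100 mGy/h, while at 10 mGy/h its mean of 94.8 ± 12.6 CPM was no higher than in controls, where it was 102 ± 36.6 CPM (SD, n = 4 each). On day 4 its means were 36.4 ± 10.5 CPM at 100 mGy/h and 47.2 ± 2.89 CPM in controls.

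Another 3 members with large differences had low counts and controls that scattered. XM_032943871.1 had 12.0, 16.8, 8.80 and 13.1 CPM at 100 mGy/h, against 5.26, 6.24, 7.81 and 4.80 CPM in controls. XM_032920973.1 (LOC116915838) had 7.29, 10.3, 7.98 and 8.86 CPM, against 3.48, 5.09, 5.55 and 3.38 CPM. XM_032927320.1 (LOC116921105) had 11.6, 9.23, 12.2 and 21.0 CPM, against 8.82, 3.45, 8.18 and 7.50 CPM. All were without overlap on day 8, by a margin of less than 1 CPM for XM_032943871.1 and XM_032927320.1. The differences were 1.00, 0.92 and 0.91 log2 units in that order. The mean of XM_032920973.1 over all libraries, 5.36 CPM, was also close to the limit of 5 CPM and included the exposed day 8 libraries.

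In XM_032930333.1 (LOC116923797) and XM_032922627.1 (LOC116917228) the 100 mGy/h level on day 8 was close to the level of day 4. XM_032930333.1 had 34.4, 36.6, 38.1 and 39.5 CPM at 100 mGy/h, against 17.6, 17.8, 23.6 and 24.2 CPM in controls on day 8. On day 4 it was at 32.4 ± 3.08 CPM at 100 mGy/h and 33.2 ± 4.71 CPM in controls (SD, n = 4 each). On the TMM scale the control level was lower on day 8 than on day 4, and the 100 mGy/h level was not. Its control difference was -0.67 log2 units on that scale and -0.99 on library totals, so the reading depends on the scale. XM_032922627.1 had 25.7, 31.6, 28.3 and 27.4 CPM at 100 mGy/h on day 8, against 18.3, 12.5, 15.3 and 13.5 CPM in controls. Its day 4 means were 22.7 ± 4.75 CPM at 100 mGy/h and 23.8 ± 3.35 CPM in controls.

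That pattern was not general. Between the control groups, the members' difference of day 8 from day 4 ranged from -0.68 to 1.21 log2 units, with a median of 0.06. It was below 0 in 41 members and in 53.0% of the 5169 records. Comparisons between the days depend on the scale, since TMM factors were 1.09 to 1.18 on day 4 and 0.79 to 0.96 on day 8. On the scale of library totals the median was -0.25, with 66 members and 82.3% of the 5169 records below 0. In edgeR's quasi-likelihood test with adjustment over all 9561 records tested, 35 members were higher in day 8 controls (25.9% of all records) and 20 lower (26.6%). At 100 mGy/h the day 8 mean lay above the day 4 mean in 85 members, with a median difference of 0.62 log2 units, both on the TMM scale. The choice favoured records that were high at 100 mGy/h on day 8, and the share over the 5169 records was not computed. Nothing is therefore read from this count.

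The members with the highest CPM, which is not corrected for transcript length, had small differences with narrow spreads. XM_032931422.1 (LOC116924846) had 879, 878, 849 and 857 CPM at 100 mGy/h, against 705, 758, 734 and 731 CPM in controls. XM_032927753.1 (LOC116921449) had 416, 431, 388 and 416 CPM, against 370, 384, 355 and 352 CPM. Neither pair of groups overlapped, with means that differed by less than 1.2-fold. XM_032937232.1 had 389, 341, 350 and 361 CPM at 100 mGy/h, against 271, 316, 317 and 281 CPM in controls, again without overlap. On day 4 this transcript had 333, 262, 286 and 244 CPM at 100 mGy/h and 294, 302, 303 and 308 CPM in controls, and the exposed libraries lay on both sides of the controls.

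At the other end, XM_032938564.1 (LOC116931070), XM_032938384.1 (LOC116930937), XM_032938569.1 (LOC116931073) and XM_032936662.1 (LOC116929427) had the smallest differences at 100 mGy/h, 0.13, 0.14, 0.16 and 0.17 log2 units. XM_032938564.1 had 354, 390, 392 and 344 CPM at 100 mGy/h, against 316, 379, 315 and 345 CPM in controls. The groups overlap, and its mean was higher at 40 mGy/h, at 390 ± 20.4 CPM (SD, n = 4). XM_032936662.1 had 65.9, 69.8, 64.5 and 64.9 CPM, against 55.9, 64.5, 54.5 and 61.2 CPM. Its mean at 1 mGy/h, 67.9 ± 4.38 CPM, was already as high as that at 100 mGy/h, 66.3 ± 2.43 CPM.

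Across the members the size of the difference went with the level. The 26 members with a mean under 20 CPM had a median difference of 0.59 log2 units at 100 mGy/h, the 58 between 20 and 100 CPM one of 0.43, and the 16 above 100 CPM one of 0.29. The median SD among controls was 0.23, 0.16 and 0.12 log2 units in these classes. Because the choice ranks by correlation, a record with more spread needs a larger difference to enter, and this order is part of the choice.

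The 3 members with a stepwise increase had small differences. XM_032942116.1 had means from 0 to 100 mGy/h of 31.9 ± 1.66, 32.9 ± 2.00, 33.3 ± 2.65, 33.3 ± 1.66, 34.4 ± 2.79, 35.8 ± 1.5 and 39.8 ± 1.99 CPM (SD, n = 4 each). Neighbouring dose rates up to 40 mGy/h differed by less than their SD, and the largest step was the last. XM_032924929.1 had 17.5, 17.3, 18.8 and 20.3 CPM at 100 mGy/h, against 13.3, 14.8, 15.5 and 16.0 CPM in controls. XM_032941752.1 had 24.5, 22.4, 22.7 and 24.1 CPM, against 20.2, 19.3, 20.1 and 19.4 CPM. In all 3 the exposed libraries lay above all controls.

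The 7 members whose 100 mGy/h libraries exceeded the other 24 of day 8 were XM_032942116.1, XM_032936979.1 (LOC116929676), XM_032922320.1, XM_032924355.1, XM_032933839.1, XM_032922650.1 and XM_032928345.1 (LOC116921984), named after their values were seen. XM_032936979.1 had 42.5, 40.9, 42.8 and 41.2 CPM at 100 mGy/h, against 17.9, 23.8, 29.7 and 27.5 CPM in controls. XM_032933839.1 had 63.4, 56.7, 62.5 and 72.0 CPM, against 39.8, 37.1, 48.3 and 41.7 CPM. XM_032922650.1 had 20.5, 15.4, 18.3 and 23.2 CPM, against 11.6, 8.70, 14.2 and 12.2 CPM. In these last 3, replicate 3 at 10 mGy/h was low, with 17.8 CPM for XM_032936979.1, 29.9 CPM for XM_032933839.1 and 6.03 CPM for XM_032922650.1.

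Some members reached or passed their 100 mGy/h level at a lower dose rate. XM_032941092.1 (LOC116933273) was the 1 member called at 40 mGy/h or below on day 8, with 31.8, 23.6, 22.4 and 25.5 CPM at 1 mGy/h, against 12.1, 15.3, 12.3 and 12.6 CPM in controls. Its mean was 13.2 ± 2.17 CPM in the 0.4 mGy/h group and 18 ± 3.04 CPM in the 4 mGy/h group (SD, n = 4 each), so the value at 1 mGy/h stands above both neighbours. At 100 mGy/h it had 16.2, 24, 19.5 and 19.7 CPM, above all controls and mostly below the 1 mGy/h group. On day 4 it was also higher at 1 mGy/h, with 18.3, 20.9, 19.2 and 18.5 CPM against 14.2, 13.5, 13.7 and 15.8 CPM in controls.

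XM_032940884.1 was also higher at 1 mGy/h on both days, and it is described because edgeR called it on day 4. On day 4 it had 27.5, 30.3, 30.9 and 26.4 CPM at 1 mGy/h, against 18.9, 18.7, 18 and 22.2 CPM in controls. On day 8 it had 32.2, 23.4, 23.2 and 28.2 CPM at 1 mGy/h, against 18.6, 20.4, 17.4 and 17.8 CPM in controls. Its day 8 libraries at 100 mGy/h, at 18, 24.2, 25.6 and 23.6 CPM, overlapped the controls.

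XM_032933477.1 (LOC116926536) changed most between dose rates on day 4, where its mean was highest at 40 mGy/h and lowest at 100 mGy/h. Its day 4 means from 0 to 100 mGy/h were 8.26 ± 1.28, 6.44 ± 1.31, 12.0 ± 2.53, 9.92 ± 1.53, 13.7 ± 2.05, 16.7 ± 4.18 and 5.01 ± 0.57 CPM (SD, n = 4 each). All 4 libraries at 40 mGy/h, with 13.5, 21.1, 19.4 and 12.7 CPM, were above the controls at 9.27, 6.67, 9.32 and 7.80 CPM, and all 4 at 100 mGy/h were below them. On day 8 it had 16.5, 12.5, 18.1 and 28.3 CPM in the 40 mGy/h group. The 100 mGy/h group had 10.8, 13.5, 14.3 and 15.2 CPM, against 9.98, 10.2, 11.6 and 8.18 CPM in controls. The highest mean was thus at 40 mGy/h on both days, though on day 8 the libraries at 40 and 100 mGy/h overlapped. Its lowest day 8 mean was at 1 mGy/h, with a range of 2.00 log2 units between group means, while on day 4 the 1 mGy/h mean was above control. With the low 100 mGy/h group its day 4 correlation with dose rank was 0.144.

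Over all members, day 4 showed no common direction. The median difference from control lay between -0.04 and 0.02 log2 units at all 6 dose rates, and the highest mean was in the 1 mGy/h group for 23 members, in the 40 mGy/h group for 21 and in the 10 mGy/h group for 19. At 100 mGy/h, all 4 libraries lay above all controls for 1 member (2.78% of the 9369 records tested) and below them for 2 (2.28%), XM_032922066.1 and XM_032933477.1. In edgeR's test with adjusted p under 0.05, no member had a day 4 slope (0.566% of all records), with 1 member among the 389 records higher and 1 among the 524 lower at an unadjusted p under 0.05, and none among the 88 called by DESeq2. None was called at 100 mGy/h (0.758%), with 4 members among the 386 records higher and 3 among the 482 lower unadjusted, and 1 among the 101 called by DESeq2. One was called higher at 1 mGy/h (0.448%), XM_032940884.1, and 1 higher at 40 mGy/h (0.267%), XM_032933477.1. No member was called for 0.4 (0.16%), 4 (0.0854%) or 10 mGy/h (0.406%), with 9, 8 and 6 members at an unadjusted p under 0.05, among 1247, 1063 and 1316 of the 9369 records. Over all dose rates below 100 mGy/h, 2 of the 660 records called by DESeq2 were members. The limit on the day 4 correlation was part of the choice, so the lack of a trend on day 4 is not a result. Whether the slopes of the days differ was not tested, because both were used to choose the members.

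Of the pairs of neighbouring genes, LOC116931073 and LOC116931070 are the records XM_032938569.1 and XM_032938564.1 named above for their small differences. In the other pair, XM_032939095.1 (LOC116931460) had 61.2, 51.3, 70.8 and 69.0 CPM at 100 mGy/h on day 8, against 45.9, 38.8, 53.7 and 50.8 CPM in controls. XM_032937295.1 (LOC116929959) had 66.0, 62.0, 71.6 and 80.1 CPM, against 52.9, 43.8, 53.7 and 51.0 CPM. In XM_032939095.1 replicate 2 at 100 mGy/h lay within the controls, and in XM_032937295.1 the groups did not overlap. On day 4 XM_032937295.1 had 46.0, 47.8, 42.8 and 43.7 CPM at 100 mGy/h, against 41.7, 38.8, 39.7 and 38.8 CPM in controls, and it was the 1 member above all controls there.

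The choice used every library, so how the members vary together among replicates of the same group is also a description of what was chosen. After removing each group's mean, the correlation between 2 members over the 28 libraries of a day had a median of 0.16 on day 8 and 0.13 on day 4, against -0.00 on day 8 and 0.02 on day 4 between pairs of the 5169 records. On day 8, 17.7% of the pairs of members had a correlation above 0.5, against 8.26% of the pairs of the 5169 records. A shift of 1 library, such as replicate 3 at 10 mGy/h, enters all of them, and its part in the values was not tested.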

How the data were processed

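Read counts per RefSeq model transcript record, whole numbers and not normalized, were deposited by the authors, with the 28 libraries of a day in 1 table. HISAT is named without a role in the submitters' processing notes. The counting program, genome build, strand setting and handling of reads shared between records were not given in the sources used here. Pairs of 100 bp reads came from a BGISEQ-500, per the labels' protocols. All 56 columns were matched by the code in the sample label. Within a day, no pair of libraries was identical or closer than sampling noise (chi-square over records divided by its degrees of freedom at least 20.7 on day 8 and 6.03 on day 4), so each was counted once.

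Members were chosen on CPM of the column total with a pseudocount of 0.5. Levels in the text use TMM factors computed over all 56 libraries. edgeR 4.0.16 in R 4.3.3 (filterByExpr, TMM, glmQLFit, glmQLFTest) was fitted to all 28 libraries of a day, with a coefficient per dose rate or a slope on dose rank, and to all 56 libraries for the difference between control groups. P-values were 2-sided and adjusted by Benjamini-Hochberg over all records tested. They measure only the spread between these libraries. The alternatives used DESeq2 1.42.0, RLE factors, no filter on low counts, a replicate block, surrogate variables from sva 3.50.0 and libraries left out. Models and rule were tested on simulated data. The members, the tests and the rule for the transcripts named were chosen with earlier results of these data known. That rule names the 10 members with the highest correlation, the 8 largest and 4 smallest differences at 100 mGy/h, the 4 with the highest CPM, the 3 with the widest 100 mGy/h group, the 3 with the widest day 4 range, those called at 40 mGy/h or below and those beside the limit. Any other transcript was named after its values were seen. Lists of pathway genes and cell type markers, and sequences, were not used, since the reference used here pairs records with LOC symbols only. Symbols were matched without the version of the record, which gave 14015 of 23570.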

Additional observations from a re-analysis of the deposited data

Results flagged for a closer look

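In 68 groups of 4 libraries, 2 had a library far from the other 3, with a gap to the nearest library above Dixon's critical share of the group's range. The 68 were the control and 100 mGy/h groups of day 8 for 27 named transcripts, and the mean standardized level of the members in the 14 groups. Both groups with such a gap were of named transcripts. Chance gives such a gap in about 1 in 20 groups. XM_032923712.1 (LOC116918049) had 70.8, 80.6, 141 and 71.0 CPM at 100 mGy/h on day 8, where replicate 3 is set off by 0.862 of the range, against 52.6, 58.1, 65.7 and 55.2 CPM in controls. XM_032941092.1 (LOC116933273) had 12.1, 15.3, 12.3 and 12.6 CPM in day 8 controls, where replicate 2 is set off by 0.853 of the range.

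XM_032922066.1 (LOC116916733) differed from control in opposite directions on the days, with every library at 100 mGy/h above the controls on day 8 and below them on day 4. The difference at 100 mGy/h was 1.43 log2 units on day 8 and -0.47 on day 4, which are 1.90 log2 units apart. This difference between the days was not tested, and the share of all records with such opposite groups was not computed. The transcript's mean of 5.81 CPM, close to the limit of 5 CPM, included the day 8 libraries where it was high.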

How the results depend on the processing

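The number of members called at 100 mGy/h on day 8, 37 in the edgeR fit, was 17 without a filter on low counts, 60 with DESeq2, 24 with the replicate number as a block and 2 with surrogate variables. The count for the day 8 slope, 71, was 8 with surrogate variables. DESeq2 called 2 members at 1 mGy/h and 5 at 40 mGy/h on day 8 and 1 at 100 mGy/h on day 4. A fit of only the 2 groups compared called 0 at 1 mGy/h on day 8 and 1 at the other dose rates of day 4. A slope on the dose rate in mGy/h called 1 member on day 4. The cause was not tested for any of these. Of the 100 members, 62 were chosen again on the TMM scale, 42 without the limit on the control difference between days, 47 without the 100 mGy/h group and 31 without the control group.

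Leaving out 1 library at a time gave 3 to 55 calls at 100 mGy/h and 28 to 84 for the slope on day 8, 1 to 2 calls below 100 mGy/h on day 4, 48 to 54 between the controls of the days, and 0 or 1 call, the number in the full fit, in every other count of calls. The rule without a replicate kept 42 to 60 members. The median log2 fold change at 100 mGy/h stayed between 0.41 and 0.47 there. It was 0.33 with surrogate variables, and with the replicate block it was 0.46.

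Within a day, replicate numbers showed no common link on average. Deviations of same-numbered libraries had a mean correlation of 0.02 on day 8 and -0.02 on day 4. Of 28 libraries, 6 on day 8 and 8 on day 4 correlated best with their own number. Single same-numbered pairs varied widely, with a lowest value of -0.62 and a highest of 0.61 on day 8. For day 4 these were -0.59 and 0.68. A mean near 0 cannot exclude that some libraries shared a culture or batch. Pairs across the days did not enter these values. Between the other settings run, 62 results kept their direction and size within 1.5 times. Low counts limit XM_032934796.1, with 1 to 5 counts in day 8 controls. With no replicate known to be a separate culture, biological spread may be larger than shown.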
